A study of Mus musculus with 145 samples.

Results

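The data described here are the arrays of naive lymph node T cells that had been in culture with beads carrying antibodies to CD3 and CD28 for 1 h, set against the control arrays of the same experiment. They were chosen by their titles and comprise 8 arrays in 4 groups, out of a survey of sorted mouse cells on Affymetrix arrays that holds 137 other arrays in 61 other groups. The 4 groups are CD4 cells at 1 h, CD4 control cells, CD8 cells at 1 h and CD8 control cells, with 2 arrays each. All came from lymph nodes of male C57BL/6 mice aged 6 weeks. CD4 cells were sorted as CD4+ CD8- and CD8 cells as CD8+ CD4-, both as TCR+ CD25- CD62Lhi CD44 Lo, after exclusion of cells bearing markers of other lineages, among them CD11c, CD49b, Gr1 and Ter119. The treatment label of the controls names the beads as well and gives no culture time, so effects of the beads and of culture cannot be told apart. Nothing in the labels says that the 2 arrays of a group came from separate animals, so each p-value reflects only how far such arrays lay apart, which may be technical.

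A T cell is activated when its antigen receptor, of which the CD3 chains are the signalling part, is engaged together with the costimulatory receptor CD28. The signal runs through tyrosine kinases to calcium and calcineurin, to MAP kinases and to NF-kB, which act on transcription factors already present in the resting cell. Genes that these factors switch on directly, without new protein synthesis, are called immediate early genes, and cytokine secretion, growth and division follow later. CD4 cells are the helper lineage and CD8 cells the cytotoxic lineage, and the comparison asks which transcripts each changes within the first hour and which of these changes they share.

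Values are intensities per probe set on a linear scale, and changes are differences of log2 intensity, 1 h minus control, with the standard error (SE) of the limma fit. A probe set was called at a Benjamini-Hochberg adjusted p under 0.05 over the 14411 probe sets tested. In CD4 cells 2903 probe sets were called (20.1% of those tested), of which 920 rose (6.38%) and 1983 fell (13.8%). In CD8 cells 2089 were called (14.5%), of which 723 rose (5.02%) and 1366 fell (9.48%). The counts of called members of gene lists given below are to be read beside these shares. The lists were written with earlier results of these data known, so a list's distance from these shares may follow in part from the choice of its members. The excess of falls depended on the setting. Among calls of at least 2-fold, 260 rose and 276 fell in CD4 cells, 188 rose and 185 fell in CD8 cells, and 138 rose and 118 fell in both. Without CD4 array 2 at 1 h, 648 rose and 743 fell in CD4 cells, and without CD8 control array 2, 472 rose and 486 fell in CD8 cells. With quantile normalization, 1403 rose and 1850 fell in CD4 cells, and 909 rose and 1111 fell in CD8 cells. The count of calls in CD4 cells was 1391 without array 2 of the CD4 cells at 1 h. In CD8 cells it was 1015 and 1152 without array 1 and array 2 at 1 h, and 1367 and 958 without control array 1 and control array 2.

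Most of the called changes had the same direction in both lineages, whether or not both were called. Called in both lineages in the same direction were 1629 probe sets (11.3%), of which 552 rose (3.83%) and 1077 fell (7.47%). The shared rises were 60% of the CD4 rises and 76.3% of the CD8 rises, and the shared falls were 54.3% of the CD4 falls and 78.8% of the CD8 falls. The lineages share no array in these comparisons. Over all 14411 probe sets the 2 sets of changes had a Pearson correlation of 0.81 and a Spearman correlation of 0.76, across probe sets, which are not independent. Of the 1273 probe sets called in CD4 cells alone, 1219 had the same sign in CD8 cells, and 2 differed between the lineages by the test of the difference. Of the 459 called in CD8 cells alone, 427 had the same sign in CD4 cells, and 7 differed by that test. The test of the difference itself called 14 probe sets (0.0971%), 9 of them higher in CD8 cells (0.0625%) and 5 lower (0.0347%), against 514 at an unadjusted p under 0.05. It called 3 with the 8 arrays alone and 6 with all arrays of the series. This count and that of the shared changes also moved when 1 array was left out, as described with the processing. The unadjusted 95% confidence interval of a difference between the lineages reached, at the median over probe sets, 0.47 log2 to each side. The smallest difference called after adjustment was 1.04, and some larger ones, such as 1.16 for Dusp2, were not called.

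**Figure D1:**
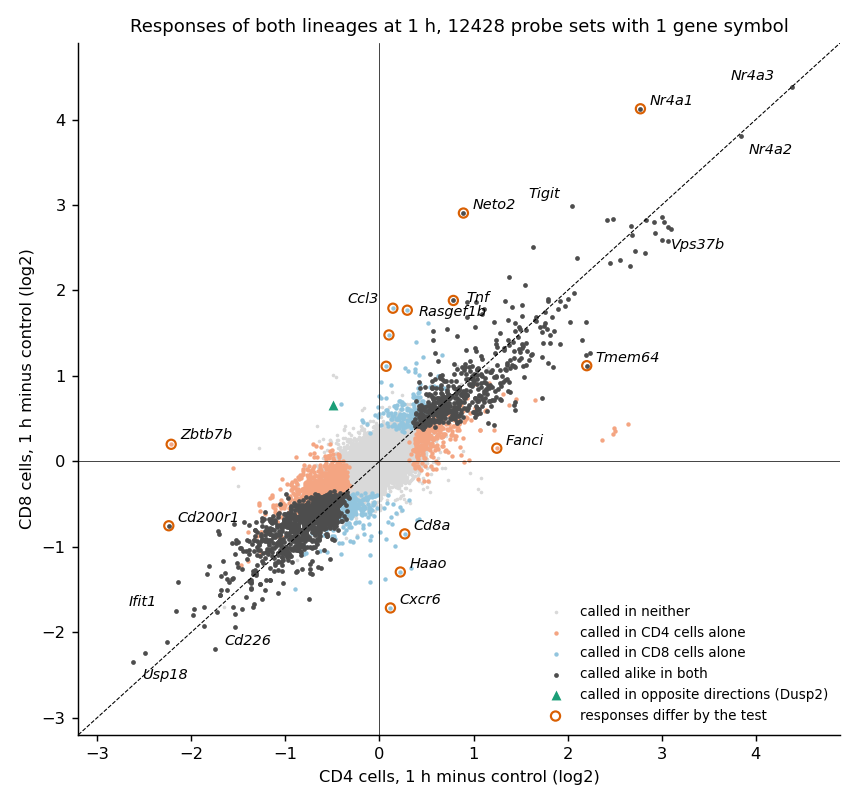
Change at 1 h in CD4 cells (x axis, log2) against the change in CD8 cells (y axis, log2), with 1 point for each of the 12428 tested probe sets that carry 1 gene symbol. Nr4a3 lies on the dashed line of equal change at 4.39 in CD4 cells and 4.38 in CD8 cells, Usp18 lies at -2.62 and -2.35, and the probe sets ringed in orange, such as Zbtb7b and Cxcr6, are those whose responses differed by the test.

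The shared rises were led by Nr4a3 and Nr4a2. With Nr4a1, which also rose in both lineages, they encode orphan nuclear receptors induced by antigen receptor signals. Nr4a3 had intensities of 4051 and 4310 in CD4 cells at 1 h, against 228 and 174 in CD4 controls, and 3961 and 4089 in CD8 cells at 1 h, against 186 and 200 in CD8 controls. It was thus low in every control array and high in every 1 h array, and it rose by 4.39 ± 0.16 in CD4 (adjusted p = 1.6e-10) and 4.38 ± 0.16 in CD8 cells (adjusted p = 8.2e-11). Its difference between the lineages, CD8 minus CD4, was -0.01 with a 95% confidence interval from -0.48 to 0.46. Nr4a2 had 2386 and 2272 in CD4 cells at 1 h, against 189 and 139 in CD4 controls, and 4147 and 4641 in CD8 cells at 1 h, against 324 and 304 in CD8 controls. It rose by 3.85 ± 0.19 in CD4 cells and by 3.81 ± 0.19 in CD8 cells, although its level was higher in CD8 than in CD4 cells on all arrays of each condition. Nr4a1 is described with the lineage differences.

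The promoter windows of these 3 genes are shown because all 3 hold 4 copies of TGACG, the core of the cyclic AMP response element that CREB and ATF proteins bind. The sequences are RefSeq's, from 250 bases before to 50 bases after the most upstream annotated start, on build GRCm38.p6, and capitals mark TGACG or its reverse complement CGTCA. The window of Nr4a1 is chr15:101266596-101266895 on the plus strand, that of Nr4a2 is chr2:57123954-57124253 on the minus strand, and that of Nr4a3 is chr4:48045055-48045354 on the plus strand.
Nr4a1: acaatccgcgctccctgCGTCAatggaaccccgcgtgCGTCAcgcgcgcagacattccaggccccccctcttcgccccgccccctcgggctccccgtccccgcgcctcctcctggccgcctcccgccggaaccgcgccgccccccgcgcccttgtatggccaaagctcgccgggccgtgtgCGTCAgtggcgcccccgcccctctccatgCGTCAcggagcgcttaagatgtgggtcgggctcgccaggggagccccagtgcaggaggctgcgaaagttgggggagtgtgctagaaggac
Nr4a2: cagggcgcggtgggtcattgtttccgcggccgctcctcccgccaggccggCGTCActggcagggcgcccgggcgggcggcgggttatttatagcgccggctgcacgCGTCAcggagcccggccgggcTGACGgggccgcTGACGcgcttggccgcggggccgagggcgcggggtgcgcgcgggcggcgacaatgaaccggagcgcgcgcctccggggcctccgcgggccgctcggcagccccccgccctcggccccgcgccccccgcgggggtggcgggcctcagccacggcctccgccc
Nr4a3: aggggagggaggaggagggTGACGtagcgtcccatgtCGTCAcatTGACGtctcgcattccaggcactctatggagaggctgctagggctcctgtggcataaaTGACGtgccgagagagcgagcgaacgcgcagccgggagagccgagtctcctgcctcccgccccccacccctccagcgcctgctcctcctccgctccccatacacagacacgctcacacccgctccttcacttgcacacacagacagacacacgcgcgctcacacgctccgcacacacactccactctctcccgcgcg
Of 9101 tested genes with a promoter window, 32.3% held TGACG on either strand, against 45.4% of the 355 genes of the shared rises and 24.6% of the 772 genes of the shared falls. Windows with 4 or more copies made up 3.38% of the shared rises (12 genes), 0.13% of the shared falls (1 gene) and 0.593% of all (54 genes). The cutoff of 4 is the count of the 3 Nr4a genes shown. These 3 are among the 12, so their part of the 3.38% follows from the choice of cutoff. Besides the Nr4a genes, the 12 were Aff4 and Heca with 5 copies each and Coq10b, Dusp8, Ell2, Ing3, Isca1, Spag4 and Trp53inp2 with 4 each. The full palindrome TGACGTCA, which counts as 2 overlapping copies of TGACG, stood in 6.76% of the shared rises, 2.2% of the shared falls and 3.31% of all. Among the 20 largest shared rises, 5 of the 16 with a window held TGACG (31.2%) and 0 held the full palindrome. These matches are a description of the letters in the windows.

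**Figure D2:**
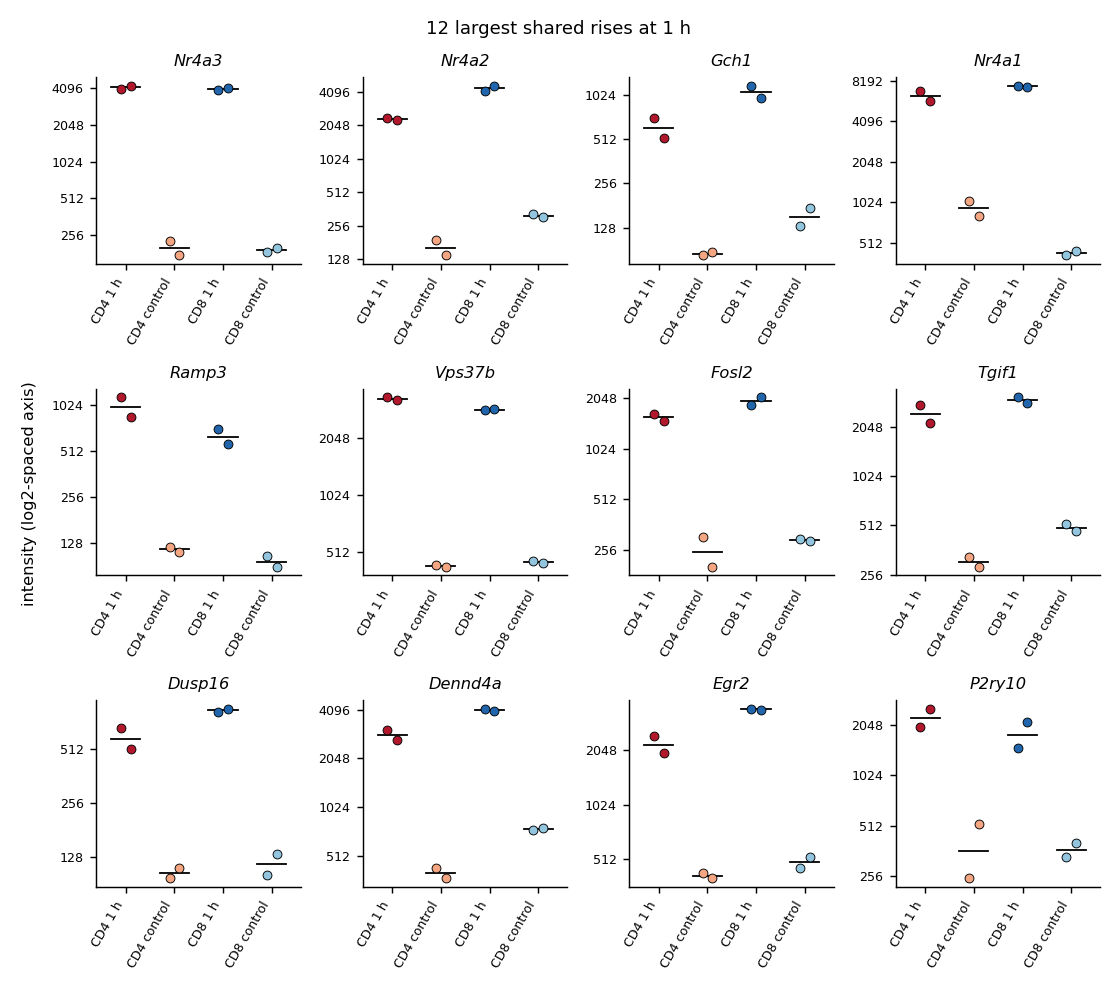
Intensity on each array (points, log2-spaced axis) of the 12 genes with the largest rises called in both lineages, for CD4 cells at 1 h, CD4 controls, CD8 cells at 1 h and CD8 controls, with bars at the mean of the log2 values. In each panel both 1 h arrays of a lineage lie above both of its control arrays, as for Nr4a3 with 4051 and 4310 at 1 h against 228 and 174 in CD4 controls.

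Other immediate early transcription factors moved in both directions. Of 6 Egr and Nab genes, Egr1, Egr2 and Egr3, zinc finger factors downstream of MAP kinase signals, rose in both lineages and 0 fell. Egr2 had 2447 and 1982 in CD4 cells at 1 h, against 428 and 399 in CD4 controls, and 3486 and 3440 in CD8 cells at 1 h, against 459 and 525 in CD8 controls. It rose by 2.41 ± 0.15 in CD4 cells and by 2.82 ± 0.15 in CD8 cells. Egr4 (-0.04 and 0.04) and the corepressor gene Nab2 (-0.00 and 0.57) were not called in CD4 or CD8 cells.

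Of 14 AP-1 genes, 5 rose (35.7%) and 2 fell (14.3%) in CD4 cells, and 5 rose (35.7%) and 1 fell (7.14%) in CD8 cells. The rises in CD8 cells numbered 2 without CD8 array 2 at 1 h and 3 without any of the other CD8 arrays. With all arrays of the series in the fit, 3 rose and 0 fell in each lineage. Fosl2, which encodes the Fos relative Fra-2, had 1656 and 1506 in CD4 cells at 1 h, against 304 and 203 in CD4 controls, and 1880 and 2078 in CD8 cells at 1 h, against 297 and 289 in CD8 controls. Fosb and Atf3 rose in both lineages as well, Atf3 by 1.52 ± 0.14 in CD4 cells and by 1.83 ± 0.14 in CD8 cells. Jun, the partner of Fos in the AP-1 dimer, fell in both lineages. It had 805 and 811 in CD4 cells at 1 h, against 1446 and 1516 in CD4 controls, and 542 and 723 in CD8 cells at 1 h, against 1303 and 1779 in CD8 controls. Fos fell by 0.82 on the log2 scale in CD4 cells (adjusted p = 0.0011), with 509 and 467 at 1 h, against 841 and 884 in controls, and its change of -0.16 in CD8 cells was not called. The CD4 controls were high in Fos and Jun beside naive CD4 cells of spleen from the same survey, which were sorted as CD44-. These spleen cells had 98.0 and 93.7 for Fos and 224 and 217 for Jun. Cd69 was also higher in CD4 controls, with 2011 and 2469, than in the spleen cells, with 736 and 937. Unlike Fos and Jun, it was higher still in CD4 cells at 1 h, with 3521 and 3618. Organ and sort differ between these groups, and whether their arrays shared 1 normalization is not stated. The part of sample handling was not tested.

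Among 24 further immediate early genes, 10 rose (41.7%) and 4 fell (16.7%) in CD4 cells, and 14 rose (58.3%) and 1 fell (4.17%) in CD8 cells. Over all probe sets, 6.38% rose and 13.8% fell in CD4 cells, and 5.02% rose and 9.48% fell in CD8 cells. Fewer falls of this list were called in CD4 cells without array 2 at 1 h. Its medians were 0.25 in CD4 cells and 0.68 in CD8 cells, beside -0.05 and -0.02 over all probe sets. Crem, a cyclic AMP response modulator, rose by 2.15 ± 0.22 in CD4 cells and by 1.42 ± 0.22 in CD8 cells. Irf4, a factor whose level follows the strength of the receptor signal, had 434 and 409 in CD4 cells at 1 h, against 162 and 163 in CD4 controls, and 555 and 588 in CD8 cells at 1 h, against 123 and 134 in CD8 controls. Per1, Sik1, Klf6, Plk3, Gadd45b and Kdm6b also rose in both lineages. Myc, the growth regulator, had 828 and 669 in CD4 cells at 1 h, against 1267 and 1104 in CD4 controls, and 1935 and 1867 in CD8 cells at 1 h, against 1814 and 1849 in CD8 controls. It fell by 0.67 on the log2 scale in CD4 cells (adjusted p = 0.0015) and was not called in CD8 cells (0.05). The difference between the lineages, 0.72 with an interval from 0.34 to 1.10, had an adjusted p of 0.42.

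Of 19 NF-kB genes 10 rose in CD4 cells and 11 in CD8 cells, 10 of them in both, with 0 falling in CD4 cells and 1, Tnfaip8, falling in CD8 cells. The rises were 52.6% of the list in CD4 cells and 57.9% in CD8 cells, beside 6.38% and 5.02% over all probe sets. The median of the list was 0.71 in CD4 cells and 0.81 in CD8 cells. Rel, the subunit c-Rel, had 3494 and 3700 in CD4 cells at 1 h, against 1411 and 1244 in CD4 controls, and 3531 and 3850 in CD8 cells at 1 h, against 1165 and 1400 in CD8 controls. Nfkb2 rose by 1.28 ± 0.13 in CD4 cells and by 1.50 ± 0.13 in CD8 cells, and Relb by 1.36 ± 0.16 and 1.65 ± 0.16. Some inhibitors of the pathway rose as well. Nfkbid, a nuclear inhibitor of the family, rose by 2.09 ± 0.15 in CD4 cells and by 2.38 ± 0.15 in CD8 cells, Tnfaip3, the ubiquitin editing enzyme A20, by 1.92 ± 0.12 and 1.37 ± 0.12, and Nfkbia by 0.96 ± 0.16 and 1.11 ± 0.16. The inhibitor genes Nfkbie (-0.03 and 0.18) and Nfkbiz (0.24 and 0.34), and Bcl3, Tnip2, Cyld and Otulin, were not called in either lineage, and the subunit gene Rela was called in CD8 cells but not in CD4 cells (adjusted p = 0.058). A loose form of the NF-kB site, GGG and CC with any 5 bases between them on either strand, stood in 81.2% of the 16 promoter windows of this list (13 windows), in 78.3% of those of all shared rises, in 68.8% of those of the 20 largest shared rises and in 68.1% of all windows.

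Genes that restrain the receptor and MAP kinase signal moved both ways. Of 33, 8 rose (24.2%) and 9 fell (27.3%) in CD4 cells, and 12 rose (36.4%) and 6 fell (18.2%) in CD8 cells. The 9 falls in CD4 cells were 4 without array 2 at 1 h, and the 12 rises in CD8 cells were 7 and 6 without array 1 and array 2 at 1 h. Among the rises, Dusp16, a MAP kinase phosphatase, had 667 and 515 in CD4 cells at 1 h, against 97.7 and 112 in CD4 controls, and 822 and 859 in CD8 cells at 1 h, against 102 and 134 in CD8 controls. Dusp10 rose by 1.84 ± 0.12 in CD4 cells and by 1.10 ± 0.12 in CD8 cells, and Cblb, a ubiquitin ligase that dampens costimulation, by 1.19 ± 0.18 and 0.72 ± 0.18. Among the falls, Dusp7, a phosphatase of ERK, had 518 and 506 in CD4 cells at 1 h, against 2113 and 1654 in CD4 controls, and 506 and 614 in CD8 cells at 1 h, against 2084 and 2147 in CD8 controls. Ptpn6, the tyrosine phosphatase SHP-1, and Csk, the kinase that inactivates Lck, fell in both lineages, Ptpn6 by log2 changes of -1.51 ± 0.12 in CD4 cells and -0.94 ± 0.12 in CD8 cells.

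Dusp2, a nuclear MAP kinase phosphatase, was the only probe set called in opposite directions (0.00694% of those tested). It had 748 and 795 in CD4 cells at 1 h, against 1100 and 1079 in CD4 controls, and 1895 and 1951 in CD8 cells at 1 h, against 1333 and 1109 in CD8 controls. Its changes were -0.50 ± 0.15 in CD4 (adjusted p = 0.033) and 0.66 ± 0.15 in CD8 cells (adjusted p = 0.0090), while the test of the difference, 1.16 with an interval from 0.69 to 1.63, gave an adjusted p of 0.070.

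Of the surface receptors of activated T cells, 8 of 23 rose (34.8%) and 3 fell (13%) in CD4 cells. In CD8 cells 12 rose (52.2%) and 3 fell (13%). The falls in CD4 cells numbered 1 without array 2 at 1 h, and those in CD8 cells 0 without array 1 at 1 h or without control array 2. Icos, a costimulatory receptor, had 2975 and 3069 in CD4 cells at 1 h, against 711 and 829 in CD4 controls, and 2271 and 2666 in CD8 cells at 1 h, against 646 and 756 in CD8 controls. Tigit, an inhibitory receptor, had 825 and 841 in CD4 cells at 1 h, against 226 and 179 in CD4 controls, and 1546 and 1893 in CD8 cells at 1 h, against 240 and 193 in CD8 controls. Cd226, the activating receptor that shares its ligand CD155 with TIGIT, moved the other way. It had 195 and 186 in CD4 cells at 1 h, against 549 and 747 in CD4 controls, and 360 and 422 in CD8 cells at 1 h, against 1686 and 1889 in CD8 controls, and no 1 h array reached a control array of its lineage. Ctla4, Cd28 and Tnfrsf18 rose in both lineages, and Btla fell in both. Il2ra, the inducible chain of the interleukin 2 receptor (CD25), had 213 and 219 in CD4 cells at 1 h, against 132 and 173 in CD4 controls, and 135 and 176 in CD8 cells at 1 h, against 48.7 and 51.5 in CD8 controls. It rose by 1.62 ± 0.21 in CD8 cells and was not called in CD4 cells (0.52 ± 0.21, adjusted p = 0.095), and the difference of 1.10 (interval 0.48 to 1.73) was not called.

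Of 18 cytokine ligands, 3 rose (16.7%) and 1 fell (5.56%) in each lineage at 1 h. Over all probe sets, 6.38% rose and 13.8% fell in CD4 cells, and 5.02% rose and 9.48% fell in CD8 cells. Il2, the growth factor of T cells, had 45.2 and 48.3 in CD4 cells at 1 h, against 46.3 and 41.9 in CD4 controls, and 46.6 and 46.7 in CD8 cells at 1 h, against 37.4 and 33.9 in CD8 controls. These values lie close to the highest intensity of Xist, which male cells lack, on the 8 arrays (39.0). Ifng had changes of 0.16 in CD4 cells and -0.25 in CD8 cells and was not called. Tnf rose in both lineages and Ccl3 in CD8 cells, as described with the lineage differences. Tnfsf11, which encodes RANK ligand, rose by 0.73 ± 0.16 in both lineages, and Tnfsf8, the CD30 ligand, fell by log2 changes of -1.53 ± 0.26 in CD4 cells and -1.08 ± 0.26 in CD8 cells.

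Of 19 receptors for cytokines, 7 rose (36.8%) and 4 fell (21.1%) in CD4 cells. In CD8 cells 6 rose (31.6%) and 5 fell (26.3%). The falls in CD4 cells numbered 1 without array 2 at 1 h and 2 without control array 1, and those in CD8 cells 2 without array 1 at 1 h or without control array 2. Both chains of the interferon gamma receptor rose. Ifngr2, its signalling chain, had 5924 and 4773 in CD4 cells at 1 h, against 1584 and 1561 in CD4 controls, and 4381 and 4482 in CD8 cells at 1 h, against 1339 and 1304 in CD8 controls. Ifngr1 rose by 1.85 ± 0.19 in CD4 cells and by 1.52 ± 0.19 in CD8 cells, and Il12rb2, a chain of the interleukin 12 receptor, by 1.55 ± 0.21 and 2.06 ± 0.21. Il27ra, Il6ra, Il18r1 and Ifnar2 fell in both lineages.

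The remaining genes among the 20 largest shared rises have varied roles. Vps37b, a subunit of the ESCRT-I sorting complex, had 3376 and 3251 in CD4 cells at 1 h, against 440 and 429 in CD4 controls, and 2880 and 2932 in CD8 cells at 1 h, against 458 and 451 in CD8 controls. Gch1, the rate-limiting enzyme of tetrahydrobiopterin synthesis, had 713 and 523 in CD4 cells at 1 h, against 83.2 and 87.6 in CD4 controls, and 1185 and 978 in CD8 cells at 1 h, against 132 and 175 in CD8 controls. Both were separated between conditions by far more than the spread of either pair, with Vps37b rising by 2.93 ± 0.12 in CD4 cells and by 2.68 ± 0.12 in CD8 cells and Gch1 by 2.84 ± 0.18 and 2.83 ± 0.18. Tgif1, a homeobox corepressor of TGF-beta signals, rose by 3.00 ± 0.15 in CD4 cells and by 2.59 ± 0.15 in CD8 cells, and Ramp3, an accessory protein of calcitonin family receptors, by 3.10 ± 0.17 and 2.72 ± 0.17. Dennd4a, an exchange factor for Rab proteins, is covered by 9 probe sets, and all 9 rose in both lineages, by between 2.45 and 3.07 in CD4 and between 2.32 and 2.86 in CD8 cells. Rras2, a Ras family GTPase among the 15 largest rises in CD4 cells, rose by 2.24 ± 0.16 there and by 1.27 ± 0.16 in CD8 cells. Myb, P2ry10, Zbtb10, Fbxo32 and Ankrd50 complete the 20, with Myb rising by 2.06 ± 0.13 in CD4 cells and by 1.97 ± 0.13 in CD8 cells.

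Interferon response genes, the antiviral genes that type I interferon induces, fell in both lineages. Of 39, 29 fell in CD4 and 28 in CD8 cells (27 in both) and 0 rose in either. The median change was -0.77 in CD4 cells and -0.72 in CD8 cells, beside -0.05 and -0.02 over all probe sets, and 38 of the 39 changes were below 0 in each lineage. Usp18, a protease that dampens signals of the type I interferon receptor, had 168 and 172 in CD4 cells at 1 h, against 1163 and 935 in CD4 controls, and 264 and 242 in CD8 cells at 1 h, against 1179 and 1414 in CD8 controls. Ifit1, which binds viral RNA, had 168 and 147 in CD4 cells at 1 h, against 605 and 820 in CD4 controls, and 188 and 228 in CD8 cells at 1 h, against 583 and 841 in CD8 controls. The 1 h arrays and the controls did not overlap for either gene. Slfn5 fell by log2 changes of -2.26 ± 0.20 in CD4 cells and -2.11 ± 0.20 in CD8 cells, and Ifit3 by -2.14 ± 0.20 and -1.41 ± 0.20. Irf1 and Irf2 fell in both lineages, Irf7 was called in CD4 cells alone (-0.90 in CD4, -0.52 in CD8 cells), and Stat2 (-0.38 and -0.49), Irf9 (-0.20 and 0.03) and Bst2 (-0.08 and -0.31) were not called. With 1 array left out at a time, between 20 and 28 of the 39 fell in CD4 and between 17 and 29 in CD8 cells, the 17 being without CD8 control array 2.

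The promoters of Ifit1 and Ifit3 are shown because each holds 2 copies of the core of the interferon stimulated response element, searched as GAAA, any 2 bases and GAAA again on either strand. Capitals mark the motif or its reverse complement. The RefSeq windows on GRCm38.p6 are chr19:34640639-34640938 and chr19:34583279-34583578, both on the plus strand.
Ifit1: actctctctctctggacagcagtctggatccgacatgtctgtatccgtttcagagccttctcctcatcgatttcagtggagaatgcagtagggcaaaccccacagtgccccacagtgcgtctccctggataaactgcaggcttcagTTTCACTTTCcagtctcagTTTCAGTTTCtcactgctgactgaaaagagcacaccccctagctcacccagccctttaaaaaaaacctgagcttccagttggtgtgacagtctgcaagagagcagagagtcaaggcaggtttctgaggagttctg
Ifit3: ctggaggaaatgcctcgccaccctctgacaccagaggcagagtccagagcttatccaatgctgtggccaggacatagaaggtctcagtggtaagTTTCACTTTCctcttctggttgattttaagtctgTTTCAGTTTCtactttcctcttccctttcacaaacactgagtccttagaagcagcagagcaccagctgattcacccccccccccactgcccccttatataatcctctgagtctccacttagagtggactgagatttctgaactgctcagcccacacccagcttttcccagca
The motif stood in 15 of the 28 windows of the interferon list (53.6%), in 6.48% of the 772 windows of shared falls, in 1.41% of those of shared rises and in 2.98% of all 9101. Of the 15 genes, 10 fell in both lineages, and Bst2, Gbp3, Oas1a, Rsad2 and Stat2 did not.

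**Figure D3:**
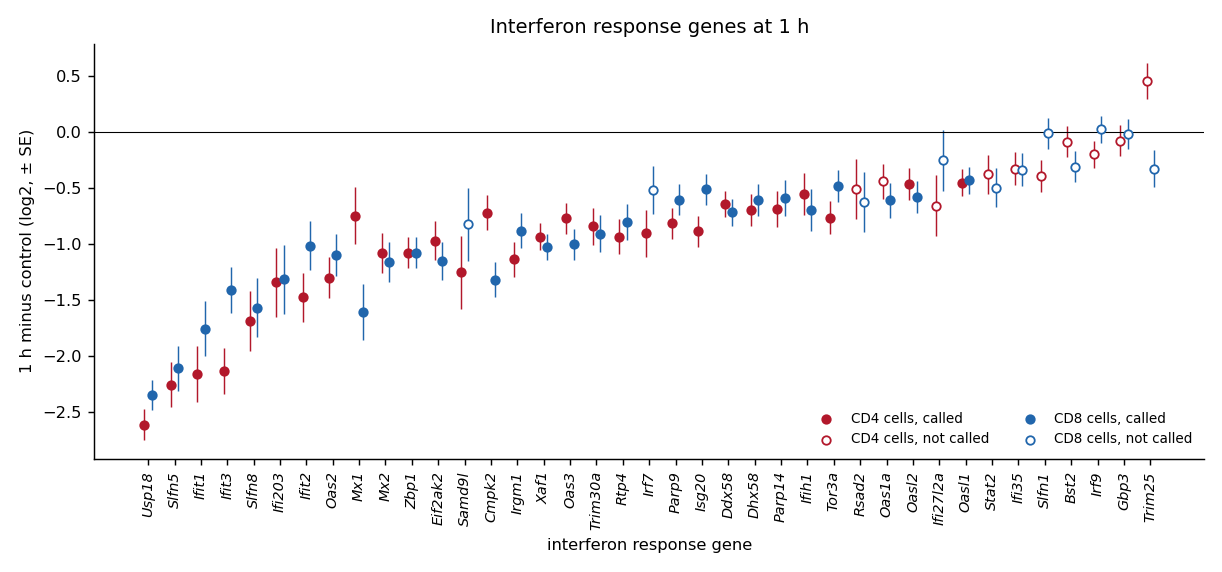
Change at 1 h minus control (log2, ± SE of the fit) of the 39 tested interferon response genes in CD4 cells (red) and CD8 cells (blue), ordered by the sum of the changes, with filled points where the change was called. 38 of 39 points lie below 0 in each lineage, from -2.62 in CD4 cells and -2.35 in CD8 cells for Usp18.

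Other large shared falls were those of genes with varied roles. Slc16a5, of the monocarboxylate transporter family, had 123 and 111 in CD4 cells at 1 h, against 691 and 625 in CD4 controls, and 119 and 141 in CD8 cells at 1 h, against 553 and 690 in CD8 controls. Tet1, an enzyme that oxidises methylcytosine in DNA, had 302 and 290 in CD4 cells at 1 h, against 940 and 789 in CD4 controls, and 251 and 244 in CD8 cells at 1 h, against 754 and 968 in CD8 controls. Tlr7, the endosomal sensor of single-stranded RNA, fell by log2 changes of -1.54 ± 0.24 in CD4 cells and -1.94 ± 0.24 in CD8 cells. The sialyltransferase gene St3gal1, the zinc importer gene Slc39a10, the receptor genes Il10rb and Treml2, the class Ib gene H2-T24 and the adaptor gene Sh2d3c also fell in both. A second probe set of St3gal1 was not called (-0.15 in CD4 cells, adjusted p = 0.49, and -0.10 in CD8 cells, adjusted p = 0.74). Fam111a, Hsd11b1, Ms4a4c and Tnfsf10, the last encoding the death ligand TRAIL, fell in both lineages, as did the interferon related genes Ifi208, Herc6, Slfn8 and Gbp7. Il10rb, a chain of the interleukin 10 receptor, had 235 and 192 in CD4 cells at 1 h, against 630 and 627 in CD4 controls, and 345 and 470 in CD8 cells at 1 h, against 965 and 1133 in CD8 controls, the reverse of the direction of Ifngr1 and Ifngr2.

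Of 32 transcription factors of T cell fate, 6 rose (18.8%) and 7 fell (21.9%) in CD4 cells. In CD8 cells 6 rose (18.8%) and 8 fell (25%). All probe sets together moved both ways too. Of these, 6.38% rose and 13.8% fell in CD4 cells, and 5.02% rose and 9.48% fell in CD8 cells. The falls in CD4 cells numbered 4 without array 2 at 1 h or without control array 1, and those in CD8 cells 4 and 5 without array 1 and array 2 at 1 h and 5 without control array 2. Bcl6, the factor of follicular helper cells, had 539 and 386 in CD4 cells at 1 h, against 274 and 216 in CD4 controls, and 381 and 467 in CD8 cells at 1 h, against 187 and 195 in CD8 controls. Rora rose by 1.32 ± 0.20 in CD4 cells and by 1.30 ± 0.20 in CD8 cells, while Gata3, the factor of type 2 helper cells, fell in both, with 532 and 381 in CD4 cells at 1 h, against 979 and 832 in CD4 controls. Id2 and Bcl11b also fell in both. Tbx21 and Eomes, the T-box factors of cytotoxic cells, fell in CD8 cells and were not called in CD4 cells (-0.10 for each). Tbx21 had 129 and 104 in CD8 cells at 1 h, against 221 and 278 in CD8 controls, and 90.1 and 93.4 in CD4 cells at 1 h, against 88.1 and 109 in CD4 controls, so the CD4 arrays were low throughout. Eomes fell by 1.41 on the log2 scale in CD8 cells. The differences were not called (Tbx21 adjusted p = 0.61, interval -1.57 to -0.43; Eomes -1.31, interval -1.92 to -0.69, adjusted p = 0.28).

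Of 15 circadian clock genes, 8 rose (53.3%) and 1 fell (6.67%) in CD4 cells, with a median of 0.51. In CD8 cells 9 rose (60%) and 1 fell (6.67%), with a median of 0.50. Over all probe sets, 6.38% rose and 13.8% fell in CD4 cells, and 5.02% rose and 9.48% fell in CD8 cells. The rises in CD8 cells numbered 5 without array 2 at 1 h. Per1, the period gene that many stimuli induce, had 1520 and 1279 in CD4 cells at 1 h, against 510 and 338 in CD4 controls, and 1397 and 1731 in CD8 cells at 1 h, against 485 and 553 in CD8 controls. Nr1d2, a repressor of the clock, rose by 1.73 ± 0.15 in CD4 cells and by 1.23 ± 0.15 in CD8 cells, and Dbp, a factor under clock control, fell in both. The time of day of collection is not given in the sources used here.

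Of 20 genes of cell cycle entry, 9 fell in CD4 (45%) and 6 in CD8 cells (30%), beside 13.8% and 9.48% over all probe sets. The inhibitor gene Cdkn1b, 1 of the 20, rose in each (5%, near the 6.38% and 5.02% over all probe sets). Without CD4 array 2 at 1 h, 3 fell in CD4 cells. Ccnd3, which encodes cyclin D3, had 695 and 541 in CD4 cells at 1 h, against 1102 and 1040 in CD4 controls, and 628 and 657 in CD8 cells at 1 h, against 1269 and 1144 in CD8 controls. Of 22 ribosome biogenesis genes 0 rose, and 3 fell in CD4 (1 without CD4 array 2 at 1 h) and 1 in CD8 cells, shares at or below those over all probe sets. Odc1, the rate-limiting enzyme of polyamine synthesis, rose by 1.44 ± 0.19 in CD4 cells and by 1.62 ± 0.19 in CD8 cells, whereas Srm, which makes spermidine, fell in both. Mxd1, an antagonist of Myc, rose by 1.56 ± 0.13 in CD4 cells and by 1.38 ± 0.13 in CD8 cells.

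Of 34 genes of the resting state, 11 rose (32.4%) and 6 fell (17.6%) in CD4 cells. In CD8 cells 6 rose (17.6%) and 5 fell (14.7%). In CD4 cells the rises numbered 5 without array 1 at 1 h and 7 without control array 2, and the falls 0 without array 2 at 1 h and 1 without control array 1. In CD8 cells the falls numbered 0 without array 1 at 1 h or without control array 2, 1 without array 2 at 1 h and 2 without control array 1. Ccr7, the lymph node homing receptor, had 8169 and 7792 in CD4 cells at 1 h, against 5424 and 5028 in CD4 controls, and 7947 and 7261 in CD8 cells at 1 h, against 5214 and 5114 in CD8 controls. Cxcr4, Tsc22d3 and Tob1 rose in both lineages, and Klf2 (0.30 and 0.34) was not called in either. Of 25 genes of the T cell receptor complex and its near partners, 2 rose (8%) and 6 fell (24%) in CD4 cells. In CD8 cells 2 rose (8%) and 5 fell (20%). The rises were near the shares over all probe sets (6.38% and 5.02%), and the falls lay above theirs (13.8% and 9.48%). The falls numbered 2 in CD4 cells without array 2 at 1 h, 3 there with quantile normalization, and 2 in CD8 cells without array 1 at 1 h or without control array 2. Vav1, Prkcq, Malt1 and Thy1 fell in both lineages, and the adaptor Bcl10, which joins MALT1 in the route to NF-kB, rose by 0.92 ± 0.11 in CD4 cells and by 1.03 ± 0.11 in CD8 cells. Cd3e itself was not called (-0.19 and -0.10).

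Of 16 genes in a list of lysosome, autophagy and phosphoinositide genes, 7 rose (43.8%) and 3 fell (18.8%) in CD4 cells. In CD8 cells 5 rose (31.2%) and 0 fell. Over all probe sets, 6.38% rose and 13.8% fell in CD4 cells, and 5.02% rose and 9.48% fell in CD8 cells. Fewer rises and falls of this list were called in CD4 cells without array 2 at 1 h. Ulk1, the kinase that starts autophagy, rose by 1.36 ± 0.16 in CD4 cells and by 1.42 ± 0.16 in CD8 cells, and Gabarapl1, Map1lc3b and Sqstm1 rose in both. Of 34 chromatin genes, 7 rose (20.6%) and 7 fell (20.6%) in CD4 cells, and 6 rose (17.6%) and 5 fell (14.7%) in CD8 cells. The falls in CD4 cells numbered 2 without array 2 at 1 h or without control array 1 and 11 without control array 2, and the rises in CD8 cells 3 without array 2 at 1 h. The falls in CD8 cells numbered 2 without array 1 at 1 h and 3 without array 2 at 1 h or without control array 2. The demethylase genes Kdm6b and Kdm2b rose in both lineages, Kdm2b by 1.73 ± 0.14 in CD4 cells and by 1.52 ± 0.14 in CD8 cells, and Dnmt1, the maintenance DNA methyltransferase, fell in both. Xbp1 and Hspa5, genes of the unfolded protein response, rose in both lineages, Xbp1 by 1.41 ± 0.18 in CD4 cells and by 1.39 ± 0.18 in CD8 cells, whereas of 23 heat shock and stress genes 3 rose in each lineage (13%, beside 6.38% and 5.02% over all probe sets in CD4 and CD8 cells) and 3 fell in CD4 and 2 in CD8 cells (13% and 8.7%, near the 13.8% and 9.48% over all probe sets). Without CD4 array 2 at 1 h or CD4 control array 2, 1 fell in CD4 cells. Of 18 genes of survival and cell death, 4 rose (22.2%) and 5 fell (27.8%) in CD4 cells, and 4 rose (22.2%) and 2 fell (11.1%) in CD8 cells. The falls in CD4 cells numbered 1 without array 2 at 1 h or without control array 1, and 2 without either of the other CD4 arrays. The death promoting Bcl2l11 (Bim) rose by 1.66 ± 0.13 in CD4 cells and by 1.65 ± 0.13 in CD8 cells, Bcl2 fell in both, and the kinase gene Pim1 rose in both.

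Probe sets annotated to 101 microRNA genes were tested, and 9 rose in CD4 and 10 in CD8 cells, 4 of them in both, while 0 fell. The shares that rose were 8.91% in CD4 and 9.9% in CD8 cells, beside 6.38% and 5.02% over all probe sets, and that of CD4 cells is near the share over all. Such a probe set cannot tell the mature microRNA from the primary transcript. For the 4 genes called in both lineages and the neighbours of Mir27a, 1 of the 2 annotated mature arms is shown, that commonly taken as the main product, and the other arm is left out for brevity. The sequences are given 5′ to 3′ from RefSeq on build GRCm38.p6, with the seed that pairs with targets (bases 2 to 8) in capitals.
mmu-miR-29a-3p: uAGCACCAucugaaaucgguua
mmu-miR-181b-5p: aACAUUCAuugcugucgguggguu
mmu-miR-98-5p: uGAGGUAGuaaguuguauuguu
mmu-miR-27a-3p: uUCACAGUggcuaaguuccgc
mmu-miR-23a-3p: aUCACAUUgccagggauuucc
mmu-miR-24-3p: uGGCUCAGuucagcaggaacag
None of the 6 share a seed, and the seed of miR-98-5p is that of the let-7 family. Mir29a had 166 and 149 in CD4 cells at 1 h, against 23.2 and 30.8 in CD4 controls, and 117 and 132 in CD8 cells at 1 h, against 23.7 and 24.9 in CD8 controls. The control values lie below the highest Xist intensity (39.0), so the floor of the array affects the size of the rise of 2.56 ± 0.23 in CD4 cells and 2.36 ± 0.23 in CD8 cells. Mir181b-1 rose by 1.79 ± 0.20 in CD4 cells and by 1.90 ± 0.20 in CD8 cells. Mir23a, Mir27a and Mir24-2 lie side by side, with the mature forms at chr8:84208563-84208583, chr8:84208727-84208747 and chr8:84208875-84208896 on the plus strand. In CD8 cells all 3 rose, by 1.05 ± 0.15, 1.42 ± 0.11 and 0.76 ± 0.14, and in CD4 cells Mir27a alone was called, at 0.57 ± 0.11, beside 0.38 ± 0.15 for Mir23a and 0.00 ± 0.14 for Mir24-2. The difference for Mir27a, 0.85 with an interval from 0.52 to 1.18, had an adjusted p of 0.052. Mir106b, Mir93 and Mir25 form a second cluster in which Mir106b and Mir93 were called in CD4 cells alone and Mir25 in CD8 cells alone, with none called in the difference.

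The 14 probe sets whose responses differed between the lineages fell into 3 patterns. In the pattern with 5 genes, a gene present in the controls of one lineage fell there and was low on all arrays of the other. Zbtb7b, the factor (ThPOK) that fixes the helper fate, had 153 and 83.7 in CD8 cells at 1 h, against 116 and 84.0 in CD8 controls, and 188 and 134 in CD4 cells at 1 h, against 821 and 658 in CD4 controls. The change was -2.21 ± 0.25 in CD4 cells (adjusted p = 2e-05) and the difference, CD8 minus CD4, was 2.41 with an interval from 1.67 to 3.16 (adjusted p = 0.010). At 1 h the lineages overlapped, with 153 in the higher CD8 array and 134 in the lower CD4 array, while their controls did not.

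Cxcr6, the receptor of the chemokine CXCL16, had 241 and 302 in CD8 cells at 1 h, against 813 and 963 in CD8 controls, and between 65.1 and 76.7 on the 4 CD4 arrays. It fell by 1.72 on the log2 scale in CD8 cells, and the difference was -1.83 with an interval from -2.31 to -1.36 (adjusted p = 0.0039). Haao, an enzyme of tryptophan breakdown, had 191 and 215 in CD8 cells at 1 h, against 452 and 546 in CD8 controls, and at most 107 on the CD4 arrays. Cd8a, the coreceptor chain by which the cells were sorted, had 3221 and 2985 in CD8 cells at 1 h, against 5700 and 5473 in CD8 controls, and between 103 and 130 on the CD4 arrays. Cd8b1 fell in CD8 cells as well, by 0.67 on the log2 scale, while Cd4 in CD4 cells (-0.24 ± 0.21, adjusted p = 0.48) was not called. Cd200r1, an inhibitory receptor, had 25.2 and 25.6 in CD8 cells at 1 h, against 36.7 and 50.1 in CD8 controls, and 41.5 and 39.7 in CD4 cells at 1 h, against 178 and 207 in CD4 controls. It fell in both lineages, and values at or below the Xist level of 39.0 limit what its smaller fall in CD8 cells can show.

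In the pattern with 7 genes, the rise was larger in CD8 cells. Ccl3, a chemokine of cytotoxic cells, had 208 and 266 in CD8 cells at 1 h, against 71.0 and 65.0 in CD8 controls, and 76.4 and 73.8 in CD4 cells at 1 h, against 63.4 and 72.8 in CD4 controls. Tnf had 1185 and 1074 in CD8 cells at 1 h, against 314 and 297 in CD8 controls, and 851 and 659 in CD4 cells at 1 h, against 413 and 457 in CD4 controls. Tnf thus rose in both lineages, by 1.88 ± 0.13 in CD8 and 0.79 ± 0.13 in CD4 cells, and the difference was 1.10 (interval 0.69 to 1.50, adjusted p = 0.036). Neto2, an accessory subunit of kainate receptors, had 542 and 671 in CD8 cells at 1 h, against 71.7 and 90.4 in CD8 controls, and 156 and 135 in CD4 cells at 1 h, against 71.2 and 86.3 in CD4 controls. Rasgef1b, a Ras family exchange factor, Cpd, a carboxypeptidase, and Irak2, a kinase of the interleukin 1 receptor route, rose by 1.77 ± 0.13, 1.48 ± 0.15 and 1.11 ± 0.12 in CD8 cells and were not called in CD4 cells (0.30, 0.10 and 0.07). Rasgef1b had 39.9 and 39.2 in CD8 controls and 43.1 and 41.5 in CD4 controls. These lie at about the Xist level of 39.0, and the floor of the array limits what its fold and its difference can show. Some genes of other cell types read above Xist, while others did not. The myeloid gene Csf1r reached 76.1 on the 8 arrays and the neutrophil gene Mpo 126. Ccl3 and Cpd in CD4 cells and in CD8 controls, and Neto2 in all controls, lay below the Mpo value. The floor may therefore limit their folds and differences too.

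Nr4a1 belongs to the same pattern, but its levels at 1 h were near each other. It had 7565 and 7375 in CD8 cells at 1 h and 6862 and 5820 in CD4 cells at 1 h, while CD8 controls had 412 and 444 and CD4 controls 1052 and 811. The rise was 4.13 ± 0.13 in CD8 and 2.77 ± 0.13 in CD4 cells, and the difference was 1.35 with an interval from 0.95 to 1.75 (adjusted p = 0.0072). The gap between the control groups, in which every CD4 array was higher than every CD8 array, was wider than that at 1 h.

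In the pattern with 2 genes, the rise was larger in CD4 cells. Tmem64, which encodes a membrane protein, had 533 and 564 in CD8 cells at 1 h, against 267 and 239 in CD8 controls, and 2686 and 2257 in CD4 cells at 1 h, against 529 and 540 in CD4 controls. Fanci, of the Fanconi anaemia repair pathway, had 99.3 and 117 in CD8 cells at 1 h, against 97.6 and 95.9 in CD8 controls, and 448 and 380 in CD4 cells at 1 h, against 179 and 169 in CD4 controls. Its CD8 values lie below the highest value of Mpo on the 8 arrays (126), so the floor may limit its difference too. Each of the 14 kept its direction in every alternative, but Cxcr6 was the only one still called in all 16 alternatives in which it was tested. The others were called in 6 (Tnf, Fanci) to 14 (Cd8a) of them.

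**Figure D4:**
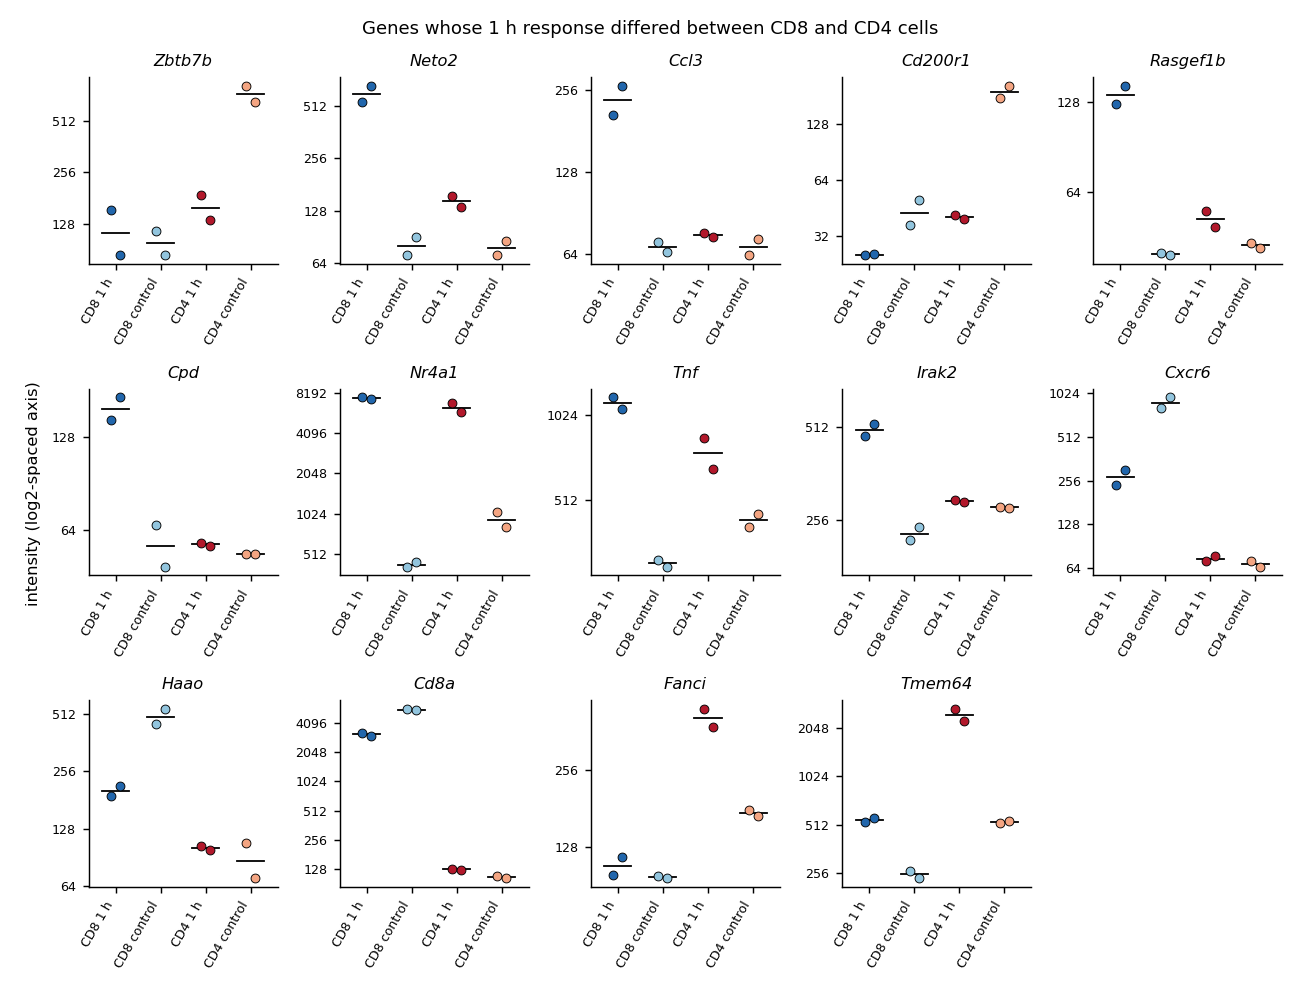
Intensity on each array (points, log2-spaced axis) of the 14 genes whose 1 h response differed between CD8 and CD4 cells, for CD8 cells at 1 h, CD8 controls, CD4 cells at 1 h and CD4 controls, with bars at the mean of the log2 values. Ccl3 reaches 208 and 266 in CD8 cells at 1 h, against 71.0 and 65.0 in CD8 controls, and Zbtb7b falls to 188 and 134 in CD4 cells at 1 h, against 821 and 658 in CD4 controls.

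Srsy, a gene of the Y chromosome, was named among the CD4 rises by the rule but rests on 1 array. It had 81.1 and 1138 in CD4 cells at 1 h, against 47.6 and 73.0 in CD4 controls, and its 5 probe sets, all called in CD4 cells, may share sequence with near-identical copies, so the value is uncertain.

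Later arrays of the same culture place the 1 h levels, with controls shared by all times and therefore given as mean levels without a test. Usp18 in CD4 cells stood at 1043 in controls, 170 at 1 h, 124 at 5 h, 198 at 24 h, 341 at 48 h and 257 at 96 h (1 array), and remained below the controls throughout. Vps37b and Ifngr2 were highest at 1 h, Vps37b in CD4 cells with 435 in controls, 3313 at 1 h and 627 at 5 h, and Ifngr2 with 1572 in controls, 5317 at 1 h and 1394 at 5 h. Irf4 in CD4 cells went on to 5305 at 5 h beside 421 at 1 h. Zbtb7b in CD4 cells stood at 735 in controls, 159 at 1 h, 268 at 5 h, 404 at 24 h, 660 at 48 h and 754 at 96 h. Ccl3 in CD8 cells stood at 68.0 in controls, 235 at 1 h and 3595 at 5 h, and in CD4 cells at 68.0 in controls, 75.1 at 1 h, 85.1 at 5 h and 392 at 24 h. Il2 in CD4 cells, near the floor at 1 h, reached 1676 at 5 h. Of the genes higher at 1 h than in controls, Vps37b and Ifngr2 were thus lower at 5 h and Irf4 and Ccl3 in CD8 cells higher.

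**Figure D5:**
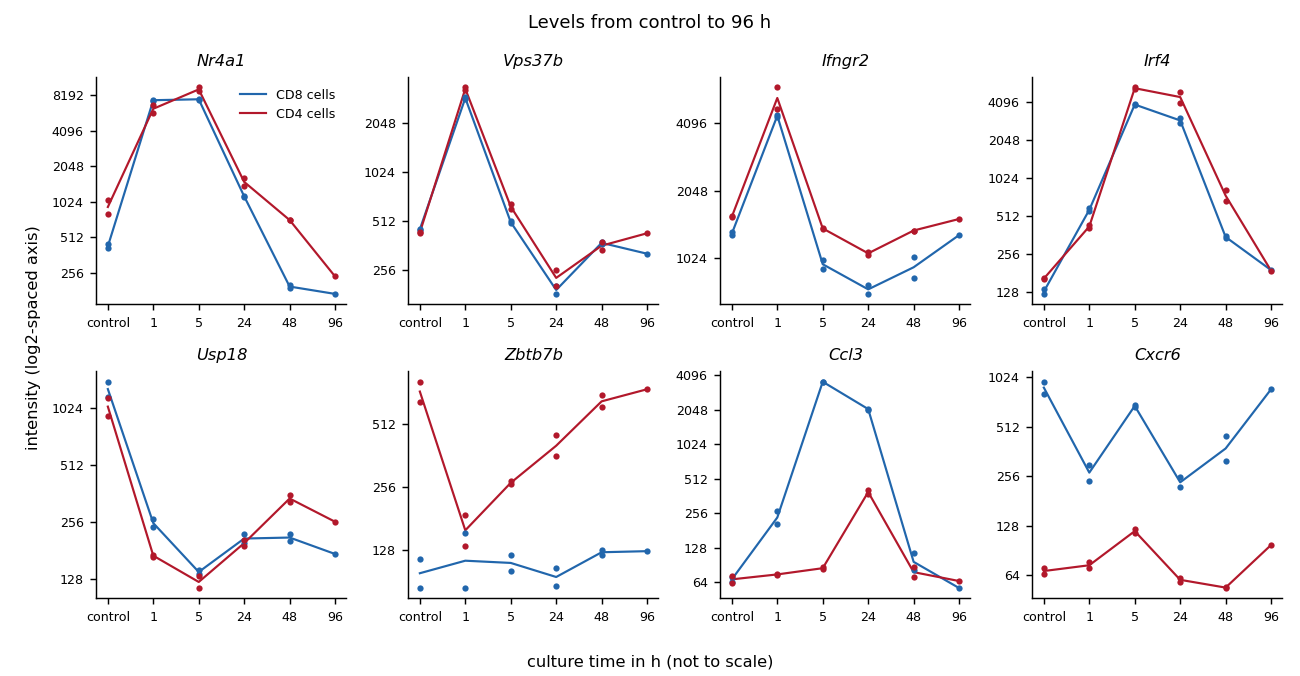
Intensity of 8 genes in CD8 cells (blue) and CD4 cells (red) from control to 96 h of culture (x axis not to scale, y axis log2-spaced), with a point for each array and a line through the means of the log2 values (1 array per lineage at 96 h). Vps37b and Ifngr2 peak at 1 h, Nr4a1 stays high at 5 h, Irf4 and Ccl3 in CD8 cells (3595) are higher at 5 h than at 1 h, and Usp18 stays below its control.

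The labels of the sort were checked against defining genes. Cd4 had 4021 and 3263 in CD4 cells at 1 h, against 5208 and 3507 in CD4 controls, and at most 98.7 in CD8 cells, and Cd8a and Cd8b1 showed the reverse. The filter on dim probe sets left 2 of 7 myeloid, 1 of 5 natural killer, 2 of 4 platelet and 0 of 5 neutrophil genes to test, and none of these was called in either lineage. Of 5 stromal or endothelial genes, Pdpn rose in CD4 cells, with 177 and 189 at 1 h, against 137 and 107 in CD4 controls. Of 7 B cell genes, Cd79b fell in CD8 cells, with 192 and 201 at 1 h, against 477 and 454 in CD8 controls, while Cd79a was at most 62.6 and Ms4a1 stayed at or below the Xist level on all 8 arrays. The summed level of the 7 lay between 733 and 819 in CD8 cells at 1 h, against 983 to 1059 in CD8 controls. This sum includes Cd79b. Ighm had 153 and 139 in CD8 cells at 1 h, against 144 and 135 in CD8 controls. H2-Eb1 had 267 and 184, against 206 and 186. For these genes, Cd74, Cd79a and Ms4a1 the CD8 arrays at 1 h and the CD8 controls overlapped. H2-Aa, at most 66.9 on the 8 arrays, was lower on both CD8 arrays at 1 h than on both CD8 controls. The part of the summed level in the CD8 results was not tested. Of 4 genes of regulatory T cells, Ctla4 rose in both lineages, Il2ra rose in CD8 cells, and Foxp3 was not called (-0.05 in CD4, -0.12 in CD8 cells). In a sorted population, fewer cells with a transcript and less of it per cell cannot be told apart. Arrays had medians from 116 to 127, and the arrays of a group correlated across probe sets with r from 0.9761 (CD4 at 1 h) to 0.9933 (CD8 at 1 h).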

How the data were processed

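Total RNA from TRIzol lysates was hybridised, with a biotin label, to Affymetrix arrays, per the labels' protocols. The deposited intensity values were made by the authors with Affymetrix Power Tools and RMA, per the submitters' processing notes. The sources used here do not state versions or which arrays shared 1 normalization. Each file column gave 1 linear intensity for each of 24922 probe sets, and the log2 was taken here. Gene symbols came from the platform annotation. 21425 probe sets carried 1 symbol, 1399 several and 2098 were not listed.

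The model was fitted with limma 3.58.1 in R 4.3.3 (lmFit and eBayes, two-sided), with a mean for each of 12 groups over the 22 arrays of the culture experiment, so that groups of 2 arrays share a spread estimated on 10 residual degrees of freedom. Probe sets with no group mean of at least 121 (the median intensity over these arrays) were left out, which kept 14411. P-values were adjusted by Benjamini-Hochberg within each comparison. The response of CD8 minus that of CD4 cells was a contrast of the same fit. The fit was tested on simulated data. A gene was represented by its probe set with the highest mean. Genes were named by rank, the 20 largest shared rises and falls, the 15 largest of each lineage and all genes of the difference, and as members of gene lists. The members and lists were chosen with earlier results of these data known. Promoter and microRNA sequences are RefSeq's, 1 window per gene, for 9101 of 11359 genes. Alternatives were other filters on dim probe sets, quantile normalization, a pseudocount of 32, other sets of arrays, trend and robust variances, a replicate block and each array left out. Equal replicate numbers did not decide whether arrays are paired (r from 0.087 to 0.57 over 6 pairs of groups with 2 shared numbers each). The number of arrays limits the precision.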

Additional observations from a re-analysis of the deposited data

Results flagged for a closer look

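14 genes were marked because the test of the difference between the 2 lineages' responses (limma, CD8 minus CD4, log2) passed an adjusted p of 0.05. Higher in CD8 cells were Zbtb7b (2.41), Neto2 (2.01), Ccl3 (1.65), Cd200r1 (1.49), Rasgef1b (1.47), Cpd (1.38), Nr4a1 (1.35), Tnf (1.1) and Irak2 (1.04). Lower in CD8 cells were Cxcr6 (-1.83), Haao (-1.52), Cd8a (-1.12), Fanci (-1.09) and Tmem64 (-1.08). For Zbtb7b and Cd200r1 the value above 0 comes with a fall in CD4 cells, of -2.21 and -2.24, rather than a rise in CD8 cells (0.20 and -0.75). In 5 of the 14 (Zbtb7b, Cd200r1, Cxcr6, Haao and Cd8a) a fall in 1 lineage went with low levels on all arrays of the other. Among genes with a rise, Ccl3, Rasgef1b and Cpd were low on all CD4 arrays too, at most 76.4, 55.2 and 58.0. Fanci was low on all CD8 arrays, at most 117.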

How the results depend on the processing

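The counts of calls in CD4 cells (2903), in CD8 cells (2089) and shared by both (1629) stayed within 1.5 times their value under no filter, a stricter filter, quantile normalization, a pseudocount of 32, the 8 arrays alone, all arrays of the series and trend with robust variances. The difference of the responses had 14 calls, and 3 with the 8 arrays alone and 6 with all arrays of the series. With at least a 2-fold change also asked, CD4 cells had 536 calls, CD8 cells 373 and both 256, with rises and falls in nearer balance. With 1 array left out at a time, CD4 calls ranged from 1391 to 2765, CD8 calls from 958 to 2232, shared calls from 824 to 1504 and calls of the difference from 4 to 125. The 1391 is without CD4 array 2 at 1 h, when shared calls numbered 1080. Without CD8 array 1 or 2 at 1 h or CD8 control array 2, shared calls numbered 873, 1001 and 824. The 125 calls of the difference (17 higher, 108 lower) arose without CD4 array 1 at 1 h, and every other array left out gave between 4 and 8. A group left with 1 array takes its spread from the other groups. With a replicate block, calls numbered 3520 in CD4 cells, 2486 in CD8 cells, 1939 shared and 19 in the difference, and equal numbers alone do not show that arrays are paired. Of 544 gene results for 315 genes, 8644 values under alternatives included 7778 on the same side of the threshold, 866 no longer past it and 0 with the direction turned. All 544 results were followed because they were called in the main fit, and the alternatives reuse the same arrays. A turned direction was therefore unlikely from the start. With 2 arrays a group, small differences between the lineages and genes near the floor of the array are the least certain. With all arrays of the series in the fit, the resting state list had 5 rises and 3 falls in CD4 cells (11 and 6 otherwise). Genes of survival and cell death had 2 falls in CD4 cells (5 otherwise) and cytoskeleton genes 2 (6 otherwise).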

Other observations

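Of 255 tested zinc finger genes named Zfp with a number, 10 rose and 38 fell in CD4 cells, and 7 rose and 22 fell in CD8 cells, with medians of -0.15 and -0.07. The share that fell was near that over all probe sets (13.8% in CD4, 9.48% in CD8 cells). Of 32 histone genes, 1 rose (3.12%) and 3 fell (9.38%) in CD4 cells and 1 rose (3.12%) in CD8 cells. Of 48 small nucleolar RNAs 1 fell in CD4 cells (2.08%). Of 63 ribosomal protein genes 1 rose in each lineage and 1 fell in CD8 cells (1.59% each). These shares lie below those over all probe sets, of which 6.38% rose in CD4 and 5.02% in CD8 cells. Of 16 calcineurin and NFAT genes, 3 rose (18.8%) and 1 fell (6.25%) in CD4 cells. In CD8 cells 3 rose (18.8%) and 2 fell (12.5%). The rises numbered 1 in CD4 cells without array 1 at 1 h or control array 2, and 1 in CD8 cells without array 1 at 1 h or control array 1. Of 20 genes of Myc, polyamines and nutrient transport, 6 rose (30%) and 5 fell (25%) in CD4 cells. In CD8 cells 7 rose (35%) and 3 fell (15%). The falls numbered 2 in CD4 cells without array 2 at 1 h, 3 there without control array 1, and 1 in CD8 cells without control array 2. Of 13 interferon regulatory factors and inducers, 4 rose and 4 fell in CD4 cells, and 3 rose and 3 fell in CD8 cells, with 2 falls in CD4 cells without array 2 at 1 h and 1 in CD8 cells without array 1 at 1 h. With all arrays of the culture experiment, these were 30.8% rising and 30.8% falling in CD4 cells, and 23.1% of each in CD8 cells. Of 8 Gimap genes 1 rose and 1 fell in CD4 cells and 1 fell in CD8 cells (12.5% each). These falls lie near the shares over all probe sets (13.8% and 9.48%), and 1 gene alone makes 12.5% of so short a list. Of 27 genes of messenger RNA decay, 6 rose (3 without CD4 array 1 at 1 h) and 1 fell in CD4 cells, and 4 rose (1 without CD8 array 2 at 1 h, 2 without CD8 control array 1) and 1 fell in CD8 cells. With all arrays of the culture experiment, the rises were 22.2% of this list in CD4 cells and 14.8% in CD8 cells, and the falls 3.7% in each. Zc3h12a, which encodes the ribonuclease Regnase-1, rose by 0.90 ± 0.18 in CD4 cells and by 1.07 ± 0.18 in CD8 cells. Xrn1, the exonuclease, fell in both. Among integrin and cytoskeleton genes, Itgal, Itgb2, Itgb7 and Coro1a fell in both lineages, and 2 of 17 rose (11.8%) and 6 fell (35.3%) in each. The falls numbered 3 in CD4 cells without array 2 at 1 h or control array 1, and 3 in CD8 cells without array 1 at 1 h or control array 2.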
